A study of Coturnix japonica and Phalacrocorax auritus with 29 samples.

Results

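The response of the embryonic liver to a high dose of chlorpyrifos, an organophosphate insecticide, was compared between the Japanese quail (JQ, Coturnix japonica) and the double-crested cormorant (DCCO, a seabird). The members are the protein names under which reads were counted in both species: 18869 names occurred in both count tables, out of 25523 in either (22845 in JQ and 21547 in DCCO). For each name the change in JQ (5 high dose against 5 control livers) was set against the change in DCCO (5 high dose against 4 control livers), and the quantity tested is the JQ log2 fold change minus the DCCO log2 fold change, called the species difference here. Eggs of both species received chlorpyrifos or DMSO, the solvent, in the air cell before incubation, and the livers came from embryos of day 9 in JQ and day 16 in DCCO, except that the labels give day 16 for JQ control 5. The labels give 40, 4.0 and 0.4 µg of chlorpyrifos per g of egg as nominal doses in both species, but do not say which of them the medium and the high dose groups received, and the high dose was set from mortality data of each species. Species and developmental day therefore cannot be told apart, and the doses that the 2 high dose groups received may differ.

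Of the 18869 shared names, 12355 passed a filter on low counts in each species and were tested, 1523 passed in JQ only, 1621 in DCCO only and 3370 in neither. Levels are given as CPM, the count of a name relative to the TMM-scaled total of its library. The difference was tested by edgeR's quasi-likelihood F test, with p-values adjusted over the 12355 names by the Benjamini-Hochberg method and called under 0.05. The libraries held 11548222 to 27778954 counts in JQ and 9890108 to 21976904 in DCCO, of which the shared names took 98.5% to 98.8% and 99.7% to 99.8%. The column names of all DCCO controls start with one prefix and those of all exposed DCCO libraries with another, so exposure and whatever the prefix marks cannot be told apart in DCCO. The DCCO control whose number matches no title is called the unnumbered control.

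Chlorpyrifos is converted in the liver by cytochrome P450 enzymes into an oxon that inhibits acetylcholinesterase, and paraoxonases and other esterases bind or split the oxon. Birds share with mammals a system of drug sensing receptors that switch on P450 genes: in chicken, CYP2H1 is the classic phenobarbital-inducible P450 and is switched on together with ALAS1, the enzyme that starts the synthesis of the heme each P450 needs. CYP1A4 and CYP1A5 of birds are instead targets of the aryl hydrocarbon receptor.

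The high dose response differed between the species for 224 of the 12355 names (1.81% of those tested), 142 higher in JQ (1.15%) and 82 lower (0.664%). Most of these differences came with a change in JQ and little or none in DCCO: 189 were called in JQ alone, 13 in DCCO alone and 22 in neither species by itself, and no name with a called difference was called in both. Among the 189, the median size of the log2 fold change was 1.38 in JQ and 0.19 in DCCO. Among the 13 it was 0.09 in JQ and 0.75 in DCCO. The difference was at least 2-fold for 151 names and at least 4-fold for 67. In the same fit the high dose called 738 names in JQ (5.97%), with 3.72% of those tested higher and 2.26% lower, and 22 in DCCO (0.178%), with 0.146% higher and 0.0324% lower. At an unadjusted p under 0.05 there were 1592 differences (12.9%), 2064 changes in JQ (16.7%) and 658 in DCCO (5.33%). High dose and control libraries did not overlap for 5.00% of the tested names in JQ and 1.61% in DCCO. The log2 fold changes had an SD over names of 0.523 in JQ and 0.245 in DCCO. Within groups, the median SD of log2(CPM + 1) was 0.188 and 0.220 in JQ control and high dose libraries and 0.260 and 0.225 in those of DCCO. Over the 12355 names the log2 fold changes of the 2 species had a Pearson r of 0.013 and a Spearman rho of -0.040, given as a description across names that share libraries. The number of names called rests on the fit. It was 361 with DESeq2, 167 with limma voom, 119 with a block for the replicate number and 122 with only the 19 high dose and control libraries. In the block fit the unnumbered DCCO control was alone in its block and so did not count in the comparison. At the medium dose the same test called 0 species differences (865 at an unadjusted p under 0.05, or 7.0%), limma voom 0 and DESeq2 17.

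**Figure D1:**
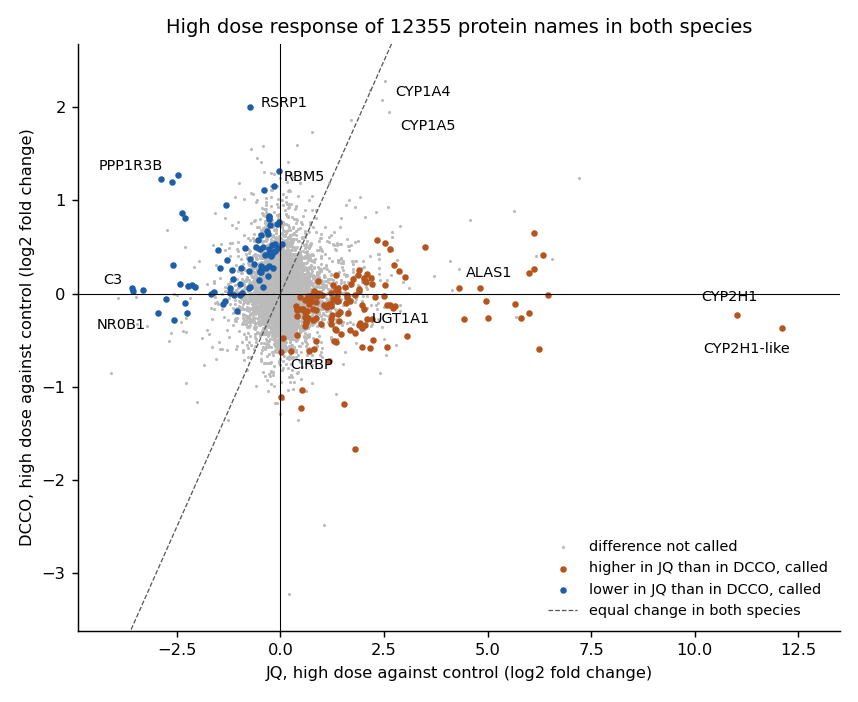
Each point is 1 of the 12355 tested names, with the log2 fold change at the high dose in JQ on the horizontal axis and in DCCO on the vertical axis, and coloured points are the 224 names whose species difference was called. Called names spread along the JQ axis, up to 12.12 for CYP2H1-like, while RSRP1 and RBM5 lie along the DCCO axis and CYP1A4 and CYP1A5 lie near the dashed line of equal change.

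Cytochrome P450 genes of the CYP2H, CYP2C and CYP3A families gave the largest species differences. CYP2H1 stood at 0.136, 1.93, 5.71, 5.68 and 3.46 CPM in the JQ controls and at 5737, 4349, 9020, 9108 and 6296 CPM in the JQ high dose libraries. The DCCO livers stood at 1.31, 0.280, 2.98 and 1.31 CPM in controls and at 1.06, 1.02, 2.10, 1.24 and 0.996 CPM at the high dose. Every exposed JQ liver was thus far above every JQ control, while the DCCO groups overlapped entirely. The JQ mean rose 2040-fold, from 3.38 ± 2.42 to 6902 ± 2097 CPM (SD, n = 5 each), whereas the DCCO ratio of means was 0.873. The species difference was 11.26 ± 0.89 on the log2 scale (SE; adjusted p = 2.9e-09), and without DCCO control 3 it was 10.58.

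The other names of these families that were tested in both species followed the same pattern. CYP2C19 stood at 2.90, 0.837, 5.91, 5.81 and 3.46 CPM in JQ controls and at 116, 120, 141, 136 and 87.4 CPM at the high dose, with no overlap. In DCCO it stood at 7.14, 3.85, 9.20 and 5.86 CPM in controls and at 4.25, 5.66, 5.15, 5.05 and 7.47 CPM at the high dose. Its difference was 5.26 ± 0.52 (adjusted p = 2.8e-07). CYP3A37, a chicken P450 of the drug and steroid hydroxylating CYP3A family, went from 1.31, 0.772, 1.51, 1.15 and 3.84 CPM to 87.5, 46.0, 185, 136 and 156 CPM in JQ. In DCCO its controls at 16.6, 15.7, 7.17 and 5.86 CPM overlapped with the high dose libraries at 8.91, 10.7, 13, 20.4 and 14.7 CPM. The difference was 5.87 ± 0.67 (adjusted p = 3.9e-06). CYP2C19-like, CYP2H1-like, CYP3A8 and CYP3A9-like had differences of 5.04, 12.49, 5.93 and 5.48, with adjusted p of 0.000197 or less. Without JQ control 4 the difference of CYP2H1-like was 13.20. For these 4 names all 5 exposed JQ livers exceeded the highest JQ control. CYP2H1-like stood at 0 to 1.47 CPM in JQ controls and CYP3A8 at 0 to 0.439 CPM, so the size of both differences rests on few control reads. CYP3A8 passed the JQ filter only through its high dose libraries, so its call partly follows from the filter.

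Similar proteins compete for reads in this kind of counting, and a gene can be counted mostly under one name in JQ and under another in DCCO. The CYP1A names described next may be an example. Names of 18 families were therefore also summed within each species, a choice made after seeing the data. Summed CYP2H stood at 0.951 to 12.9 CPM in JQ controls and 8966 to 18611 CPM at the high dose, against 3.29 to 18.3 and 4.40 to 13.5 CPM in DCCO. The difference was 11.25 (95% interval 9.70 to 12.79, adjusted p = 1.5e-10). Summed CYP2C rose from 49.9 to 241 CPM to 2683 to 4455 CPM in JQ and stood at 49.1 to 137 and 75.3 to 113 CPM in DCCO, a difference of 5.01 (3.92 to 6.10, adjusted p = 1.8e-06). Summed CYP3A rose from 76.3 to 160 CPM to 409 to 1448 CPM in JQ. In DCCO it stood at 114 to 273 CPM in controls and 143 to 486 CPM at the high dose. The DCCO medium dose libraries stood at 282 to 708 CPM, all above every DCCO control. The high dose difference of 2.67 (1.66 to 3.68, adjusted p = 0.00387) was smaller than that of the single CYP3A names. In the JQ controls most of the sum lay under other CYP3A names. In JQ control 1 the sum was 83.5 CPM, with CYP3A9-like at 6.66 and CYP3A37 at 1.31 CPM. In JQ high 2 it was 409 CPM, with CYP3A9-like at 277 and CYP3A37 at 46.0 CPM.

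**Figure D2:**
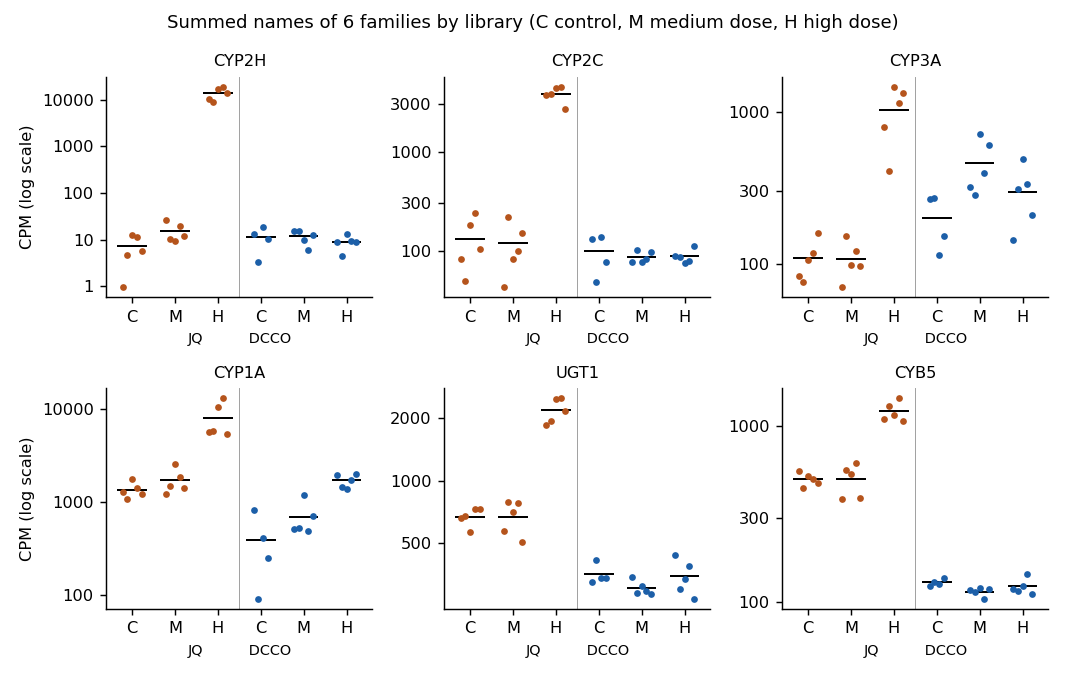
Summed CPM of 6 families in every library on a log axis, with a bar at the group mean and the control, medium dose and high dose groups side by side for each species (5 libraries each, 4 for DCCO controls). CYP2H, CYP2C, CYP3A, UGT1 and CYB5 stand higher in all 5 JQ high dose libraries than in the JQ controls and overlap between the DCCO control and high dose groups, while CYP1A stands higher at the high dose in both species.

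The CYP1A genes moved in both species, and their differences were not called. Summed CYP1A stood at 1281, 1066, 1760, 1423 and 1217 CPM in JQ controls and at 5746, 5883, 10610, 13046 and 5354 CPM at the high dose. DCCO levels stood at 813, 90.9, 408 and 252 CPM in controls and at 1974, 1466, 1365, 1722 and 2021 CPM at the high dose. All 10 high dose livers lay above every control of their species, and the DCCO controls spread widely, with control 1 highest and control 2 lowest. The log2 fold change was 2.59 in JQ (adjusted p = 7.9e-05) and 2.13 in DCCO (adjusted p = 0.0232). Their difference of 0.46 had a 95% interval of -0.62 to 1.55 (adjusted p = 0.801), which leaves room for a JQ change up to 1.55 larger or 0.62 smaller on the log2 scale.

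Name by name, CYP1A4 had a difference of 0.24 (-0.91 to 1.39) and CYP1A5 one of 0.67 (-0.47 to 1.81), with adjusted p of 0.928 and 0.704. CYP1A4 and CYP1A5-like were the 2 names called in both species. CYP1A5 had log2 fold changes of 2.62 in JQ and 1.95 in DCCO, the latter with an adjusted p of 0.0553. In DCCO these calls turned on single controls. CYP1A4 and CYP1A5-like lost theirs without control 3 (0.0812 each) or the unnumbered control (0.114 each). CYP1A4-like (2.19, adjusted p = 0.00596) lost its call without the unnumbered control alone (0.0575). CYP1A5 gained one without control 1 (2.83, adjusted p = 0.000894) or medium dose 3 (0.0472). In JQ the counts stood under the plain names CYP1A4 and CYP1A5, and the -like names held at most 3.08 CPM. In DCCO they stood mostly under the -like names, with 443 to 750 CPM for CYP1A4-like and 632 to 925 CPM for CYP1A5-like at the high dose. Whether the plain and the -like names hold reads of the same genes was not tested. AHR, the receptor upstream of these genes, had a difference of -0.57 (-1.24 to 0.10) and was not called (adjusted p = 0.498).

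Not every drug metabolising P450 had a called difference. CYP2W1 rose in JQ by 1.44, with a log2 fold change of 0.53 in DCCO, and its difference of 0.91 was not called (adjusted p = 0.164), nor was that of CYP2W2 (1.28, adjusted p = 0.160) or CYP2W1-like (0.82, adjusted p = 0.326). The 10 other CYP2 names tested, from the 2AC, 2D, 2G, 2J, 2K and 2U subfamilies, had differences of -1.28 to 0.08 with adjusted p of 0.496 or more. Summed CYP2D, a constitutive family, stood at 493 to 875 CPM in JQ controls and 700 to 1041 CPM at the high dose, and at 0.980 to 3.62 and 1.81 to 7.56 CPM in DCCO. Of the 21 tested members of the xenobiotic oxidation list, 7 had a higher response in JQ and 0 a lower one (33.3%, against 1.81% over all names), with a median difference of 0.67 against 0.01 over all names. Besides CYP2H1, CYP2C19, CYP3A8 and CYP3A37 these included 2 partners of the P450s, CYB5A and PGRMC1. This list and those below were chosen with earlier results of these data known, so their shares are no independent evidence.

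The partners of the P450s and the enzyme that starts heme synthesis showed the split as well. PGRMC1, a heme-binding membrane protein that binds P450s, stood at 107, 102, 97.8, 112 and 107 CPM in JQ controls and at 266, 219, 307, 223 and 221 CPM at the high dose. The DCCO livers stood at 142, 113, 137 and 124 CPM and at 132, 104, 136, 116 and 103 CPM. The JQ groups did not overlap, the DCCO groups did, and the difference was 1.36 ± 0.17 (adjusted p = 1.1e-05). Summed cytochrome b5, an electron donor of P450s, had a difference of 1.36 (1.02 to 1.71, adjusted p = 2.0e-05). POR, the main electron donor, rose in JQ by 0.71 with a difference of 0.82 that was not called (adjusted p = 0.0522).

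ALAS1 stood at 139, 77.6, 142, 83.2 and 139 CPM in JQ controls and at 1939, 1726, 2248, 3448 and 2121 CPM at the high dose. In DCCO it stood at 73.4, 62.2, 44.8 and 65.1 CPM in controls and at 84.3, 77.4, 55.4, 53.4 and 48.2 CPM at the high dose. No JQ library at the high dose came near the control range, while in DCCO only 2 of 5 lay above every control. The difference was 4.25 ± 0.31 (adjusted p = 5.6e-10). Of 27 heme and iron genes 2 were called (7.41%, against 1.81% over all names), both higher, and the median difference was 0.00. The other called member was SLC25A39, a mitochondrial carrier needed for heme synthesis (0.67, adjusted p = 0.0219), which lost its call without DCCO control 1 or the unnumbered control (0.0575 to 0.0576).

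Some genes of conjugation, and 1 gene of export, had a higher response in JQ too. UGT1A1, which glucuronidates bilirubin and drugs, stood at 229, 231, 189, 271 and 260 CPM in JQ controls and at 611, 655, 796, 813 and 696 CPM at the high dose. DCCO levels stood at 63.1, 83.0, 71.3 and 63.6 CPM and at 79.4, 60.7, 74.4, 73.8 and 61.6 CPM. The JQ groups did not overlap and the difference was 1.60 ± 0.19 (adjusted p = 4.2e-06). The UGT1A6 name rose from at most 0.772 CPM in JQ controls to 11.8 to 42.5 CPM, and stood at 1.81 to 8.19 and 1.89 to 10.2 CPM in DCCO. Its difference was 5.78 ± 0.74 (adjusted p = 1.8e-05), and summed UGT1 had a difference of 1.73 (1.33 to 2.13). ABCB1, an efflux pump of drugs, stood at 59.3, 63.9, 35.7, 44.5 and 61.0 CPM in JQ controls and at 110, 93.4, 181, 117 and 140 CPM at the high dose. The DCCO livers stood at 36.5 to 56.1 CPM in controls and 39.9 to 49.2 CPM at the high dose. Its difference was 1.34 ± 0.27 (adjusted p = 0.00656). The call was lost with a block for the replicate number (adjusted p = 0.0870). HPGDS, a glutathione transferase, had a difference of 2.63 (adjusted p = 0.0247), which was lost without JQ control 1, JQ high 3, DCCO control 1, DCCO control 3 or DCCO high 2 (0.0502 to 0.0531). Of 25 conjugation genes 4 were called (16.0%), all higher in JQ, and of 23 transporters ABCB1 alone (4.35%), against 1.81% over all names.

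**Figure D3:**
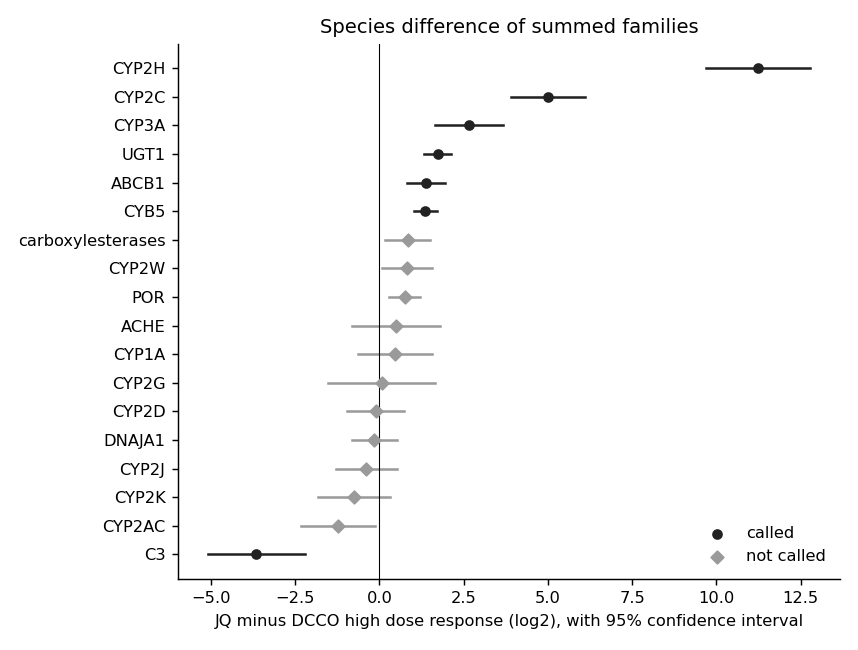
Species difference (JQ minus DCCO log2 fold change at the high dose) of 18 summed families, with 95% confidence intervals, as filled circles where called and grey diamonds where not. CYP2H at 11.25 and CYP2C at 5.01 stand furthest to the right, C3 at -3.65 is the 1 called family on the left, and the interval of CYP1A spans 0.

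Antioxidant genes had 3 called differences among 48 tested (6.25%, against 1.81% over all names), all higher in JQ. In the species themselves 10 members rose in JQ, where 3.72% of all names did, and 0 in DCCO, where 0.146% did. GCLC, the catalytic subunit of the enzyme that limits glutathione synthesis, stood at 23.3, 23.6, 17.2, 19 and 18.6 CPM in JQ controls and at 71.8, 42.1, 47.3, 40.4 and 42.2 CPM at the high dose. DCCO stood at 14.4 to 25.5 CPM in controls and 16.5 to 25.5 CPM at the high dose. The JQ groups did not overlap, with high 1 the highest, and the difference was 1.17 ± 0.25 (adjusted p = 0.0102). It was not called without the 5 libraries with the highest sums of kidney or gut markers (0.98, adjusted p = 0.0673), a setting chosen after seeing the data. These libraries were JQ medium 1, JQ high 1, JQ high 5, DCCO control 2 and DCCO medium 5. OSGIN1, an oxidative stress response gene, rose from 53.9 to 80.1 CPM to 112 to 257 CPM in JQ and stood at 257 to 510 and 371 to 437 CPM in DCCO. Its difference was 1.48 ± 0.28 (adjusted p = 0.00348). GCLM, the partner subunit of GCLC, had a difference of 0.86 that was not called (adjusted p = 0.0792).

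Among nuclear receptors and liver transcription factors, 2 of 44 differences were higher and 2 lower in JQ (9.09%, against 1.81% over all names). NR0B1, an orphan receptor that represses other nuclear receptors, stood at 15.5, 16.1, 7.01, 20.3 and 8.83 CPM in JQ controls and at 2.51, 3.21, 1.05, 1.5 and 0.527 CPM at the high dose. In DCCO it stood at 3.86, 3.71, 4.25 and 6.73 CPM and at 5.43, 3.98, 3.20, 3.22 and 4.18 CPM. Every exposed JQ liver was below every JQ control, the DCCO groups overlapped, and the difference was -2.76 ± 0.51 (adjusted p = 0.00322). NR1H4, the bile acid receptor, went in opposite directions. It stood at 78.4, 102, 80.5, 80.4 and 63.6 CPM in JQ controls and 40.8, 69.7, 60.7, 61.6 and 45.6 CPM at the high dose, where 4 of 5 were below every control. DCCO levels stood at 36.5, 32.6, 44.6 and 44.3 CPM in controls and at 60.6, 57.6, 62.3, 62.3 and 52.4 CPM at the high dose, all 5 above every control. The log2 fold changes were -0.54 (adjusted p = 0.0130) and 0.58 (adjusted p = 0.126), and the difference of -1.12 ± 0.20 was called (adjusted p = 0.00171).

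NR1I3, the receptor known to act on CYP2H1 in chicken, had a difference of -0.28 (-1.28 to 0.72) and was not called (adjusted p = 0.895). The related receptor name NR1I2 was not among the names tested in both species.

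Esterases include the direct targets and scavengers of organophosphates. Of 35 esterases and lipases 0 were higher and 1 lower in JQ (2.86%), near the 1.81% over all names, with a median difference of -0.07. BCHE, which binds the oxon in plasma, had a difference of -0.20 (-0.73 to 0.33), PON1 one of -0.46 (-0.94 to 0.01) and PON2 one of -0.42 (-0.87 to 0.02), with adjusted p of 0.409 or more. Summed acetylcholinesterase names stood at 1.53 to 12 CPM in JQ controls and 1.73 to 5.88 CPM at the high dose. In DCCO they stood at 11.8 to 18.3 and 6.37 to 10.2 CPM, where every exposed liver lay below every control, with a log2 fold change of -0.86 that was not called. The difference was 0.50 (-0.81 to 1.80) and was not called (adjusted p = 0.831). The 1 called member was DAGLB, a lipase that makes an endocannabinoid (-0.78, adjusted p = 0.0334). It lost its call without JQ control 1, 2 or 4, JQ high 3, DCCO control 1 or 2, or DCCO high 4 or 5 (0.0512 to 0.0782).

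Among secreted plasma proteins, C3 gave the largest lower difference. Complement C3, the central protein of the complement cascade, stood at 672, 636, 365, 1367 and 1576 CPM in JQ controls and at 29.5, 90.5, 91.3, 82.6 and 88.7 CPM at the high dose. The DCCO livers stood at 4582, 1625, 4477 and 3424 CPM in controls and at 4057, 3243, 3279, 3247 and 4572 CPM at the high dose. The JQ groups were fully apart, with high 1 the lowest, and the DCCO groups overlapped. The difference was -3.65 ± 0.70 (adjusted p = 0.00392). Of 69 plasma protein genes 1 was higher and 5 were lower in JQ (8.70%, against 1.81% over all names), with a median difference of -0.34. By the JQ change itself 12 of them fell and 5 rose, where 2.26% and 3.72% of all names did. IGFBP1, a binding protein of insulin-like growth factors, was the member that was higher. It stood at 6.80 to 11.9 CPM in JQ controls and at 25.5, 32, 88.4, 31.6 and 222 CPM at the high dose, with a difference of 3.52 ± 0.71 (adjusted p = 0.00596) that was 2.67 without JQ high 5. It was not called by limma voom (adjusted p = 0.200) or with the replicate block (2.97, adjusted p = 0.128). The lower members beside C3 lost their calls when single libraries were left out. For complement C6 (-2.91, adjusted p = 0.0310) these were JQ control 2, JQ high 1, DCCO control 1, control 2 and the unnumbered control, and DCCO high 3 and 4 (0.0508 to 0.0730).

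Hepatocyte markers moved with these falls. The summed level of the 20 markers was 237097 to 282820 CPM in JQ controls and 120466 to 217913 CPM in JQ high dose livers, without overlap. In DCCO it was 129099 to 233077 and 142011 to 208512 CPM. The lowest JQ value was that of high 1, whose kidney markers summed to 2092 CPM. The other JQ high dose livers stood at 184135 to 217913 CPM. None of the 20 had a called difference, and their median difference was -0.53. In JQ 5 of them (FGA, FGB, TF, HPX and F2, all of the plasma protein list too) fell, where 2.26% of all names did. Fewer hepatocytes and less RNA per hepatocyte cannot be told apart in whole liver. The part of other tissue in JQ high 1, and that of the hepatocyte shift in the plasma protein results, were not tested. Of 9 bile duct markers 2 were called higher (22.2%, against 1.81% called over all names), SPP1 among them. SPP1, a secreted phosphoprotein (2.43, adjusted p = 0.0361), lost its call without JQ control 1, 3, 4 or 5, JQ high 1, DCCO control 1, or DCCO high 2, 3 or 4, with an adjusted p of up to 0.135. The 13 erythroid markers had 0 called differences and a median difference of -0.65, from -0.09 in JQ and 0.62 in DCCO. Their summed level was 1938 to 6090 CPM in DCCO controls and 3523 to 10002 CPM in DCCO high dose livers. Of 10 macrophage, 7 granulocyte and thrombocyte, 15 endothelial, 13 stellate, 6 muscle, 4 gut and 2 neural markers tested, 0 were called, against 1.81% over all names. So few markers cannot show that these cells were unchanged. Gut and pancreas markers summed to 157 to 338 CPM in JQ controls and 207 to 847 CPM in JQ high dose livers. The highest was JQ high 5, also the highest library for IGFBP1 and, described below, PCK1 and TMEM139. In DCCO, control 2 had the highest kidney marker sum, 287 CPM, and the lowest hepatocyte marker sum, 129099 CPM. Its gut and pancreas marker sum of 471 CPM was the highest of the DCCO controls. The part of other tissue in JQ high 5 and in DCCO control 2 was not tested.

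Lipid and sugar metabolism held a few further differences, mostly of genes that rose in JQ. ELOVL5, which lengthens polyunsaturated fatty acids, stood at 12.7, 14.9, 14.5, 10.2 and 16.9 CPM in JQ controls and at 90.8, 38.5, 53.0, 51.8 and 27.6 CPM at the high dose. In DCCO it stood at 10.4, 27.2, 16.1 and 14.9 CPM and at 18.5, 13.7, 13, 14.7 and 8.37 CPM. The JQ groups did not overlap, and the difference was 2.24 ± 0.38 (adjusted p = 0.000943). LPIN1, a phosphatase of triglyceride synthesis, rose from 1.41 to 2.68 CPM to 6.19 to 21.3 CPM in JQ and stood at 4.76 to 12.5 and 3.89 to 11.6 CPM in DCCO, a difference of 2.89 ± 0.57 (adjusted p = 0.00565). ACLY, which supplies acetyl-CoA for lipid synthesis, had a difference of 1.74 (adjusted p = 0.0247) and lost it without JQ control 1, JQ high 3, JQ high 5 or DCCO control 2 (0.0508 to 0.0950). Of 36 genes of fatty acid and triglyceride synthesis 3 were higher and 0 lower, and of 50 of fatty acid oxidation and ketogenesis 3 were higher and 0 lower, with medians of 0.28 and 0.03, which makes 8.33% and 6.0% called against 1.81% over all names.

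PPP1R3B, the liver subunit that directs protein phosphatase 1 to glycogen, fell in JQ and stood higher in exposed DCCO livers. It stood at 18.5, 22.5, 16.1, 37.6 and 16.7 CPM in JQ controls and at 3.66, 7.03, 2.19, 5.95 and 1.43 CPM at the high dose. DCCO levels stood at 5.91, 5.18, 4.89 and 5.07 CPM in controls and at 7.37, 11.8, 23.2, 8.75 and 12.9 CPM at the high dose. Neither pair of groups overlapped. The JQ change was -2.47 (adjusted p = 9.0e-05), the DCCO change 1.27 was not called (adjusted p = 0.437), and the difference was -3.74 ± 0.55 (adjusted p = 0.000180). PCK1, the enzyme that limits gluconeogenesis, stood at 7.08 to 10.4 CPM in JQ controls and at 96.1, 24.9, 56.3, 13.8 and 724 CPM at the high dose, against 280 to 618 CPM in all DCCO livers of these groups. Its difference of 4.70 ± 1.07 (adjusted p = 0.0170) was 2.76 without JQ high 5 and then not called (0.0623), nor was it called by limma voom (0.149) or with the replicate block (0.200). Of 39 glucose genes 2 were higher and 1 lower (7.69%, against 1.81% over all names).

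**Figure D4:**
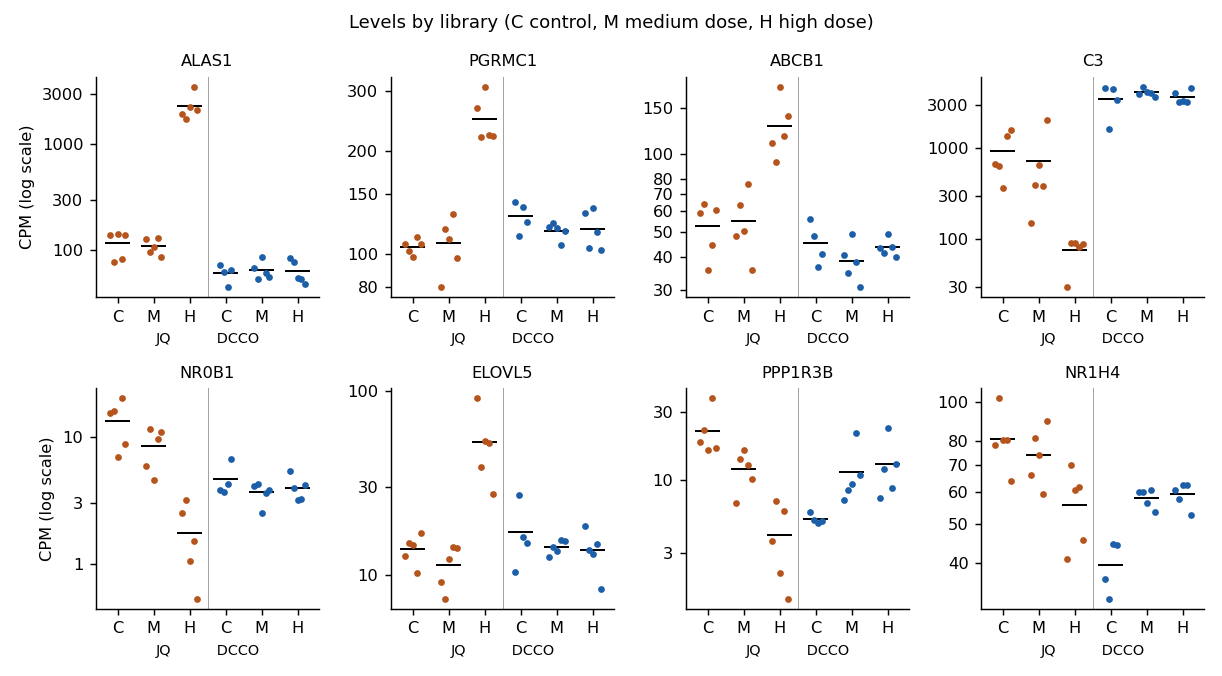
CPM of 8 genes in every library on log axes, with a bar at the group mean, for control (C), medium dose (M) and high dose (H) of each species. ALAS1, PGRMC1, ABCB1 and ELOVL5 rise and C3 and NR0B1 fall at the JQ high dose, while PPP1R3B and NR1H4 move down in JQ and stand higher in exposed DCCO livers.

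The remaining large differences were single genes of varied function. INHBA, an activin subunit, stood at 2.89 to 10.6 CPM in JQ controls and 0.264 to 2.38 CPM at the high dose, and at 0.770 to 3.20 and 2.18 to 8.11 CPM in DCCO. Its difference was -4.11 ± 0.83 (adjusted p = 0.00596), from -3.74 to -4.81 when single libraries were left out, lowest without JQ high 1, and it was not called with the replicate block (0.0511). TPPP, which bundles microtubules, stood at 0.136 to 0.481 CPM in JQ controls and at 2.53 to 30.1 CPM at the high dose, and at most 1.90 CPM in DCCO, a difference of 6.07 ± 0.91 (adjusted p = 0.000205). TMEM139, a membrane protein, had one of 6.22 (adjusted p = 0.000518), which limma voom did not call (0.149) and which was 5.47 without JQ high 5. It stood at 0.0906 to 0.257 CPM in JQ controls. TPPP and TMEM139 had few reads in JQ control and medium dose livers and passed the JQ filter only through the high dose libraries. Their calls therefore partly follow from the filter, and the size of their differences rests on few control reads. MYC, a growth-promoting transcription factor, rose from 7.08 to 10.1 CPM to 15 to 29.2 CPM in JQ and stood at 33.5 to 55.5 and 31.8 to 47.4 CPM in DCCO. Its difference was 1.5 ± 0.25 (adjusted p = 0.000772).

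For SLC34A1, a phosphate carrier of the kidney, and ASS1, a urea cycle enzyme, JQ high 1 stood far above the other JQ libraries. SLC34A1 stood at 1207, 12.5, 32.4, 17.9 and 11.3 CPM in JQ high dose livers and at 1.77 to 5.34 CPM in JQ controls. Its difference of 6.85 ± 1.37 (adjusted p = 0.00596) was 3.06 and still called without JQ high 1, since the other 4 exposed livers also lay above every control. It was not called by limma voom (0.241) or with the replicate block (0.256). ASS1 stood at 250, 0.844, 0.429, 0.386 and 0.452 CPM, and its difference of 6.45 (adjusted p = 0.0444) turned to -0.15 without JQ high 1 (adjusted p = 0.944) and was not called in 24 of the 29 fits without 1 library. In JQ high 1 the 10 kidney markers summed to 2092 CPM, while no other JQ library exceeded 101 CPM. SLC34A1 is itself 1 of these markers and made up 1207 CPM of that sum. In DCCO, SLC34A1 stood at 54.5, 265, 38.5 and 74.8 CPM in controls and at 52.5 to 99.3 CPM at the high dose. Of 4 kidney markers tested, SLC34A1 was called higher and CUBN had a difference of 6.19 that was not called (adjusted p = 0.0701).

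Of the 13 names with a called difference and a call in DCCO alone, 5 were on the list of splicing and RNA-binding genes (RBM5, RSRP1, CLK4, CIRBP and SRSF6). That list held 94 of the 12355 tested names. It was drawn up with earlier DCCO results known, so this count is no independent evidence. The other names are of varied function, among them inhibitor of growth 1, integrator subunit 6, rootletin and histone H1.10. RBM5, a splicing factor, stood at 63.6, 71.1, 60.6 and 70.7 CPM in DCCO controls and at 127, 157, 163, 138 and 154 CPM at the high dose. In JQ it stood at 94.3, 72.6, 75.0, 61.1 and 61.7 CPM and at 94.6, 58.6, 53.3, 70.5 and 52.4 CPM. The DCCO groups were fully apart and the JQ groups overlapped. The log2 fold changes were 1.15 (adjusted p = 0.000706) and -0.15 (adjusted p = 0.71), and the difference was -1.30 ± 0.21 (adjusted p = 0.000630). RSRP1, a nuclear protein rich in arginine and serine, stood at 4.10, 7.0, 7.05 and 5.95 CPM in DCCO controls and at 20.8, 25, 29.9, 25.2 and 20.4 CPM at the high dose. In JQ it stood at 3.78 to 13.2 CPM and at 1.91 to 9.62 CPM. The difference was -2.75 ± 0.51 (adjusted p = 0.00322). CLK4, a kinase that phosphorylates splicing factors, stood at 24.4 to 30.9 CPM and at 41.7 to 45.3 CPM in DCCO, and at 19.6 to 26.7 CPM and at 14.9 to 22.5 CPM in JQ. Its difference was -0.99 ± 0.18 (adjusted p = 0.00190).

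CIRBP, a cold-inducible RNA-binding protein, went the other way in DCCO. It stood at 277, 222, 271 and 254 CPM in DCCO controls and at 158, 146, 160, 170 and 195 CPM at the high dose, with every exposed liver below every control. In JQ it stood at 136 to 170 CPM and at 133 to 176 CPM. The difference was 0.64 ± 0.14 (adjusted p = 0.0113), with a JQ change of 0.01, and it was not called with only the 19 high dose and control libraries (0.0545). DUSP4, a phosphatase of MAP kinases, stood at 67, 60.0, 64.6 and 51.6 CPM in DCCO controls and at 44.5, 38.3, 34.1, 41.5 and 39.2 CPM at the high dose, again without overlap, and at 4.12 to 5.60 and 4.90 to 7.19 CPM in JQ. Its difference was 0.88 ± 0.20 (adjusted p = 0.0164), with a DCCO change of -0.62 that was not called in this fit (adjusted p = 0.0561). The difference was not called without the 5 libraries with the highest kidney or gut marker sums (0.0989).

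The differences of RBM5, RSRP1, CLK4, CIRBP and DUSP4 held their calls in all 29 fits that left out 1 library. The DCCO change itself held in all of them for RBM5 and CIRBP. It was lost for RSRP1 without DCCO control 1, control 3 or the unnumbered control (0.0581 to 0.0691) and for CLK4 without control 2, control 3 or the unnumbered control (0.0661 to 0.115). The medium dose libraries of DCCO, which carry the same prefix as the high dose ones, lay on the same side of the controls. RBM5 stood there at 113, 116, 110, 123 and 126 CPM, RSRP1 at 13.2 to 16.9 CPM, CIRBP at 174 to 191 CPM and DUSP4 at 33.9 to 38.3 CPM, all 5 outside the control range for each gene. Against the controls, exposure and the prefix cannot be told apart for these genes. Between the 2 doses, which share the prefix, RBM5 stood at 127 to 163 CPM and RSRP1 at 20.4 to 29.9 CPM at the high dose. For both genes all 5 high dose libraries lay above every medium dose one. The 2 dose groups overlapped for CLK4, CIRBP and DUSP4. The change from the medium to the high dose was not tested.

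Of 94 splicing and RNA-binding genes tested, 2 differences were higher in JQ and 4 lower, with a median difference of -0.02. This is a share of 6.38%, against 1.81% over all names. The called ones were RBM5, RSRP1, CLK4, CIRBP, LUC7L3 and SRSF6. LUC7L3, a protein of the U1 particle (-0.61, adjusted p = 0.0203), lost its call without DCCO control 2 or the unnumbered control (0.0581 to 0.0713). SRSF6, a splicing factor chosen after its values were seen (0.55, adjusted p = 0.0231), lost it without JQ control 1, DCCO control 3 or the unnumbered control, with an adjusted p of up to 0.0574. This list was drawn up with earlier DCCO results known, so its share is no independent evidence. Of the 13 names with a called difference and a call in DCCO alone, 10 were lower and 3 higher in the difference.

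**Figure D5:**
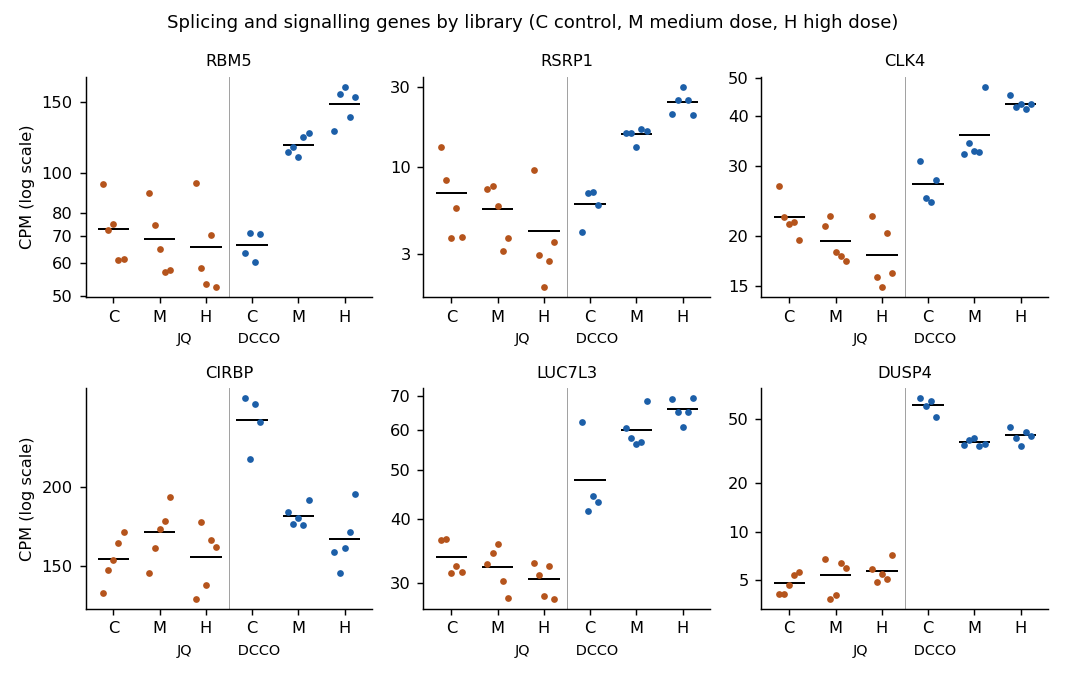
CPM of 6 genes of splicing, RNA binding and signalling in every library on log axes, with a bar at the group mean, for control (C), medium dose (M) and high dose (H) of each species. RBM5, RSRP1 and CLK4 stand higher and CIRBP and DUSP4 lower in all 5 DCCO high dose libraries than in the 4 DCCO controls, while the JQ groups overlap.

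For 36 of the 224 called names the 2 species moved in opposite directions with an unadjusted p under 0.05 in each, 11 higher and 25 lower in JQ. Choosing names by a called difference favours opposite signs, which 176 of the 224 had. The 36 are therefore a description, and the same count over all tested names was not made. The DCCO changes cannot be told apart from the prefix. NR1H4, BRAP, PLEKHA6, GADD45A and RHOU were among them. BRAP, a cytoplasmic protein of Ras signalling, stood at 34.8, 36.5, 37.3, 38.5 and 35.1 CPM in JQ controls and at 41.3, 45.6, 47.9, 50.2 and 54.5 CPM at the high dose. The DCCO livers stood at 12.8, 16.2, 17.3 and 17.3 CPM and at 9.97, 11.3, 11.7, 13.4 and 12.5 CPM, where 4 of 5 were below every control. The difference was small but narrow, at 0.83 ± 0.14 (adjusted p = 0.00114). PLEKHA6, a junction protein, stood at 28.1 to 36.6 CPM and 13.7 to 23.5 CPM in JQ and at 26.8 to 31.6 CPM and 34.4 to 51.3 CPM in DCCO, with no overlap in either species. Its difference was -1.34 ± 0.20 (adjusted p = 0.000151). GADD45A, induced by DNA damage and other stress, had log2 fold changes of 0.81 and -0.60, and the GTPase RHOU of 0.68 and -0.62. Their differences were 1.41 ± 0.24 (adjusted p = 0.00114) and 1.30 ± 0.26 (adjusted p = 0.00596). In DCCO none of these 5 changes passed by itself, with adjusted p of 0.0999 to 0.355.

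Names that passed the filter in 1 species could not be tested for the difference. By a fit of that species alone, 60 of the 1523 JQ names of this kind were called at the high dose (3.94%), and 0 of the 1621 DCCO names. In the main fit 5.97% of the names tested in both species were called in JQ and 0.178% in DCCO. That fit held the libraries of both species, so these shares cannot be ranked against those of the fits of 1 species. A name can pass the filter through the group where it is high, so these calls are a description. CYP2H2, the sister gene of CYP2H1, stood at 0.816 to 6.19 CPM in JQ controls and at 2924 to 5766 CPM at the high dose (log2 fold change 10.44, adjusted p = 7.4e-08). In DCCO it stood at 0.0700 to 0.317 CPM in controls and 0.0603 to 0.468 CPM at the high dose. PDZK1, a scaffold of membrane carriers, stood at 0.658 to 1.90 CPM in JQ controls and at 104, 14.9, 12.3, 15.6 and 3.05 CPM at the high dose (4.39, adjusted p = 0.00600). ACSM4, an acyl-CoA synthetase, stood at 0.575 to 1.76 CPM in JQ controls and at 74.0, 2.81, 1.67, 2.78 and 2.79 CPM at the high dose (4.06, adjusted p = 0.0457). For both genes JQ high 1, the library with kidney markers at 2092 CPM, was the highest by far, and 1 of the other 4 ACSM4 levels lay within the control range. The part of that library in these 2 results was not tested.

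The remaining lists held few calls each in number, with shares of 0 to 11.1%, some below and some above the 1.81% over all names. Heat shock genes and chaperones had 0 of 55, cell division genes 0 of 62 and oxidative phosphorylation genes 0 of 51, with medians of 0.07, 0.07 and -0.04. The co-chaperone BAG3 rose in DCCO by 0.77 (adjusted p = 0.0408) with a difference of -0.71 that was not called (adjusted p = 0.0906), and its DCCO call was lost without any 1 of 14 libraries. Interferon response genes had 1 lower of 25 (4.00%) with a median of -0.57, and in JQ 5 of them fell, where 2.26% of all names did. The lower one was EIF2AK2, the kinase that senses viral RNA (-1.29, adjusted p = 0.0154). It was not called with only the 19 high dose and control libraries (0.0674), with the replicate block (0.0677) or without the 5 libraries with the highest kidney or gut marker sums (0.0551). Genes of the unfolded protein and amino acid stress response had 1 lower of 43 (2.33%), MAP kinase feedback genes 2 higher and 1 lower of 37 (8.11%), cholesterol synthesis 1 higher of 22 (4.55%) and bile acid synthesis 1 lower of 9 (11.1%).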

How the data were processed

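Whole-number read counts per protein name were deposited by the authors in 1 table per species. The tables' names give Seq2Fun, which assigns translated reads to proteins, with an all-birds database. The submitters' processing notes name edgeR without a role or version. Aligner settings and a genome build were not found in those notes. RNA came from individual embryonic livers, per the labels' protocols, sequenced as paired reads. Columns ending in S were taken as controls because H and M stand for the exposed groups, and 0 columns were left out. The spread behind each p-value is that between these livers.

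Counts of all 29 libraries were fitted with edgeR 4.0.16 (R 4.3.3) as 6 group means, with TMM factors computed within each species. Names had to pass filterByExpr (minimum count 10, minimum total 15) in each species. Standard errors are the log2 value over the square root of F, and intervals are at 95%. The same code was tested on simulated data. DESeq2 1.42.0, limma 3.58.1, other scalings and filters, a replicate block, a 1.5-fold minimum, fits without single libraries and 4 alternatives added after seeing the data were also run.

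The genes, lists and members were chosen with earlier results of these data known. Named genes were the 12 largest differences per direction with an average log2 CPM of at least 0, up to 5 per list by p, a fixed set of P450, esterase, receptor and DCCO-led genes, up to 5 names with opposite changes and up to 6 that passed in 1 species. Reads of near-identical paralogs can be split between names. A few results are not reported here, and no sequences or coordinates are given.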

Additional observations from a re-analysis of the deposited data

Results flagged for a closer look

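Among the levels of 39 genes, in 156 groups of libraries, 10 groups held a library far from the others by Dixon's criterion on log2(CPM + 1), and chance flags about 1 group in 20. The outlying libraries were DCCO high 3 for CYP2H1 (2.10 CPM), JQ control 3 for CYP1A4 (594 CPM), JQ high 1 for GCLC (71.8 CPM), C3 (29.5 CPM), SLC34A1 (1207 CPM), ASS1 (250 CPM) and ACSM4 (74.0 CPM), DCCO high 1 for TPPP (0 CPM), and DCCO high 4 for ACSM4 (0.0537 CPM) and PDZK1 (2.69 CPM). All other DCCO high dose libraries stood at 0 CPM for ACSM4, so its flag in DCCO rests on almost no reads.

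The high dose response differed between the species by edgeR's test of the difference for 67 of the 145 named genes tested, and 44 of the 67 held that call in all 29 fits that left out 1 library. Each value given is the JQ minus the DCCO log2 fold change. Among P450 genes it was 11.26 for CYP2H1, 12.49 for CYP2H1-like, 5.26 for CYP2C19, 5.04 for CYP2C19-like, 5.93 for CYP3A8, 5.87 for CYP3A37 and 5.48 for CYP3A9-like. It was 4.25 for ALAS1, 1.36 for PGRMC1, 1.60 for UGT1A1, 5.78 for UGT1A6, 1.34 for ABCB1, 1.48 for OSGIN1 and 1.17 for GCLC. Among regulators it was -1.12 for NR1H4, -2.76 for NR0B1, 1.5 for MYC, -1.29 for EIF2AK2 and 0.88 for DUSP4. In metabolism and secretion it was -3.65 for C3, 3.52 for IGFBP1, 2.24 for ELOVL5, 2.89 for LPIN1, 0.94 for EHHADH and -3.74 for PPP1R3B. Of other functions were SLC34A1 (6.85), TMEM139 (6.22), TPPP (6.07), INHBA (-4.11), ECE2 (-3.12), CPLX2 (-2.30), TSPO2 (-2.26), BRAP (0.83), PLEKHA6 (-1.34), GADD45A (1.41) and RHOU (1.30). Among RNA-binding and splicing genes it was -2.75 for RSRP1, -1.30 for RBM5, -0.99 for CLK4 and 0.64 for CIRBP. Summing names with their -like names ended the call of ECE2 (-1.68, adjusted p = 0.0738). CYP3A8, TPPP and TMEM139 passed the JQ filter only through the high dose libraries.

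The other 23 lost the call when single libraries were left out. PCK1 (4.70) lost it without JQ high 5, ADA (-3.25) without DCCO control 2 and SLC2A8 (-0.73) without the unnumbered DCCO control. GM2A (-3.36) and LUC7L3 (-0.61) each lost it without DCCO control 2 or the unnumbered control, and GM2A was -1.92 without JQ control 1. SLC25A39 (0.67) lost it without DCCO control 1 or the unnumbered control. ACLY (1.74) lost it without JQ control 1, JQ high 3 or 5, or DCCO control 2. HPGDS (2.63) lost it without JQ control 1, JQ high 3, DCCO control 1 or 3, or DCCO high 2. ERBB2 (-0.68) lost it without JQ control 1, JQ high 3 or 5, DCCO control 2 or unnumbered, or DCCO high 5. C6 (-2.91) lost it without any 1 of 7 libraries, DAGLB (-0.78) of 8, HMGCS1 (2.01) and KLB (-1.09) of 9, UGDH (2.73), NR1D1 (1.72), PLG (-0.94) and FABP7 (1.95) of 11, and AGT (-1.27) and EIF2AK4 (-0.57) of 12. G6PC1 (0.93) lost it without any 1 of 18, OSGIN2 (1.27) of 20, PIK3C2G (-2.71) of 23 and ASS1 (6.45) of 24.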

How the results depend on the processing

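The count of 224 species differences was 222 with relative log expression factors, 220 with TMM over both species together, 156 without a filter, 186 with a filter over all libraries and 167 with limma voom. It was 361 with DESeq2, 122 with only the 19 high dose and control libraries and 53 when tested against a 1.5-fold minimum. Leaving out 1 library gave 151 (without JQ control 1) to 299 (without DCCO high 1), and 202 without JQ control 5, the one labelled day 16. Of the 224 names, 120 kept the call in every such fit in which they were tested and 104 lost it in at least 1. Alternatives added after seeing the data gave 211 with -like names summed, 177 without the 5 libraries with the highest kidney or gut marker sums and 262 without DCCO control 1 and high 1. The JQ count of 738 was 400 with separate voom fits, 149 with the 1.5-fold minimum, 432 without the 5 marker libraries and 540 to 850 without single libraries. The DCCO count of 22 was 51 with DESeq2, 6 with separate voom fits, 3 with only the 19 libraries and 0 with the 1.5-fold minimum (55 at an unadjusted p under 0.05). Without single libraries it was 5 (without control 3) to 48 (without high 1). The medium dose difference had 0 calls, and 17 with DESeq2. ASS1 reversed without JQ high 1, to -0.15 for the difference and for JQ, and to -0.09 for JQ without the 5 marker libraries, with 6.77 its highest value without 1 library. Where not shown by fewer libraries or the stricter test itself, the cause was not tested.

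Replicate numbers are shared between groups but name separate embryos. The main fit therefore did not pair them. Deviations of same-numbered control and high dose libraries correlated at -0.03 to 0.19 in JQ. In DCCO they correlated at 0.52 for number 1, 0.33 for number 2 and 0.07 for number 3. Same-numbered medium and high dose libraries of DCCO correlated at 0.06 to 0.35, and control and medium dose libraries at -0.07 to 0.08. Whether the numbers mark something shared by DCCO libraries was not tested. With the replicate block the species difference had 119 calls, 109 of them among the 224, and DCCO had 4. That fit loses the unnumbered DCCO control, which is alone in its block, and DCCO high 4 and 5 have no control of their number. In the main fit without the unnumbered control there were 155 species differences and 7 DCCO calls. How much of the drop is due to the replicate number was therefore not separated.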
